A study of Mus musculus with 8 samples.

Results

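The genes examined here were 9 genes of BCR-ABL signaling, chosen by name as the adaptors, regulators and SRC-family kinase that act directly beside the oncoprotein: Crkl, Crk, Gab2, Grb2, Sos1, Shc1, Cbl, Inpp5d and Lyn. All 9 were found among the 15576 genes of the table, and all 9 passed the filter on low counts that left 11937 genes to test. They were followed in sorted cells that the study calls leukemic stem cells (LSCs), from the bone marrow of C57BL/6 mice with chronic myeloid leukemia (CML), profiled by bulk RNA-seq in 4 libraries from untreated CML mice and 4 libraries from CML mice given imatinib (CML-TKI). Both groups carried the same pair of transgenes, SCL-tTA and BCR-ABL, in which the Scl element directs the tetracycline transactivator to stem and progenitor cells and BCR-ABL comes on when tetracycline is withdrawn, so the untreated group was leukemic and no library here came from a normal mouse. Imatinib, a tyrosine kinase inhibitor (TKI) of ABL and KIT among other kinases, was given by gavage at 400 mg/kg on alternate days for 30 days, stated elsewhere in the labels as 4 weeks. The dose is that of the labels. The study's methods name this dose and a lower one, and its legends give the lower one for these mice, a difference that could not be settled here. The labels give no age, and they do not say whether a library came from 1 mouse or from pooled mice, so the p-values measure the spread between these libraries, which may in part be technical.

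BCR-ABL is a fusion kinase that is active without a ligand and assembles a signaling complex on its own phosphorylated tyrosines. GRB2 binds one of these tyrosines and brings in SOS1, which loads RAS with GTP, and GAB2, which recruits PI3K and the phosphatase SHP2. SHC1 is a second route to GRB2, while CRKL and CRK bind proline-rich stretches of ABL, and phosphorylated CRKL is the usual clinical readout of BCR-ABL activity. CBL is a ubiquitin ligase and scaffold, INPP5D (SHIP1) removes a phosphate from the lipid that PI3K makes, and LYN is a SRC-family kinase of myeloid and B cells that phosphorylates GAB2 and can signal without BCR-ABL. These are mostly events at the protein level, and the data here are messenger RNA only.

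The CML libraries held between 4939644 and 8620101 counts and the CML-TKI libraries between 1041552 (CML-TKI 3) and 5104268 (CML-TKI 1). The fourth CML column carries the number 5 and is called CML 5. Levels are given in CPM (TMM-scaled counts relative to the library total), and 3 counts, taken as the floor, corresponded to 0.570 to 3.29 CPM in CML-TKI LSCs, for counting error only. The 9 genes lay above it in every library, with 291 to 1395 counts in a CML library, and in a CML-TKI library with 11 (Sos1 in CML-TKI 3) to 1047. On the first principal component of all genes, CML-TKI 1 (-19.2) lay nearest the CML libraries (-74.4 to -69.3), with CML-TKI 4 at 70.1, CML-TKI 3 at 116.5 and CML-TKI 2 at 118.8. The labels give a CD150-negative, CD48-positive gate for all 8 libraries, whereas the study's figure legends define LSCs as CD48-negative and CD150-positive. Slamf1, which encodes CD150, had a log2 fold change of -3.42 (adjusted p = 0.00797 by edgeR) and Cd48 one of 4.35 (adjusted p = 8.70e-04). Slamf1 had 24, 2, 6 and 6 counts in CML-TKI libraries 1 to 4. It thus entered the test through the CML libraries, where it was high, and its call carries that limit. The RNA of these gate markers differed between the groups, that of CD150 lower and that of CD48 higher after imatinib. Of the study's other gate markers, Kit was lower (-1.92, adjusted p = 8.70e-04 by edgeR), while Ly6a and Flt3 did not pass (adjusted p = 0.373 and 0.522 by edgeR). Markers of other cells differed as well: 12 of 13 granulocyte genes and 10 of 10 monocyte genes passed the test as higher in CML-TKI LSCs, as did 6.29% of all genes. All 9 hematopoietic stem cell genes tested had every CML-TKI library below every CML library (13.1% of all genes did), and 4 of them passed the test, as did 3.93% of all genes in that direction. LSC is therefore used here as the study's name for the sorted cells, and the markers do not bear it out for the CML-TKI libraries.

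Of the 9 genes, 1 passed an adjusted p of 0.05 between CML-TKI and CML LSCs, where 10.2% of all genes tested did. That gene was Lyn, 2.39-fold higher in CML-TKI LSCs, so that 1 gene was called higher (6.29% of all genes were) and 0 were called lower (3.93% of all genes were). Every CML-TKI library lay above every CML library for 2 of the 9 genes, Lyn and Cbl, as for 10.3% of all genes tested, and the groups overlapped for the other 7, whereas 13.1% of all genes had every CML-TKI library below every CML library. The share called was thus close to that of all genes. An unadjusted p under 0.05 was reached by 3 genes, Lyn, Cbl and Gab2, where 25.7% of all genes reached it. The median log2 fold change of the 9 genes was -0.11 against -2.58e-04 for all genes tested, with 6 of the 9 means lower in CML-TKI LSCs. The coefficient of variation among the 4 CML-TKI libraries was larger than among the 4 CML libraries for 9 of 9 genes. The share of all genes for which this held was not worked out, so the count is not a result about the 9 genes. Of the 4 CML-TKI libraries, 3 were shallower than every CML library.

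**Figure D1:**
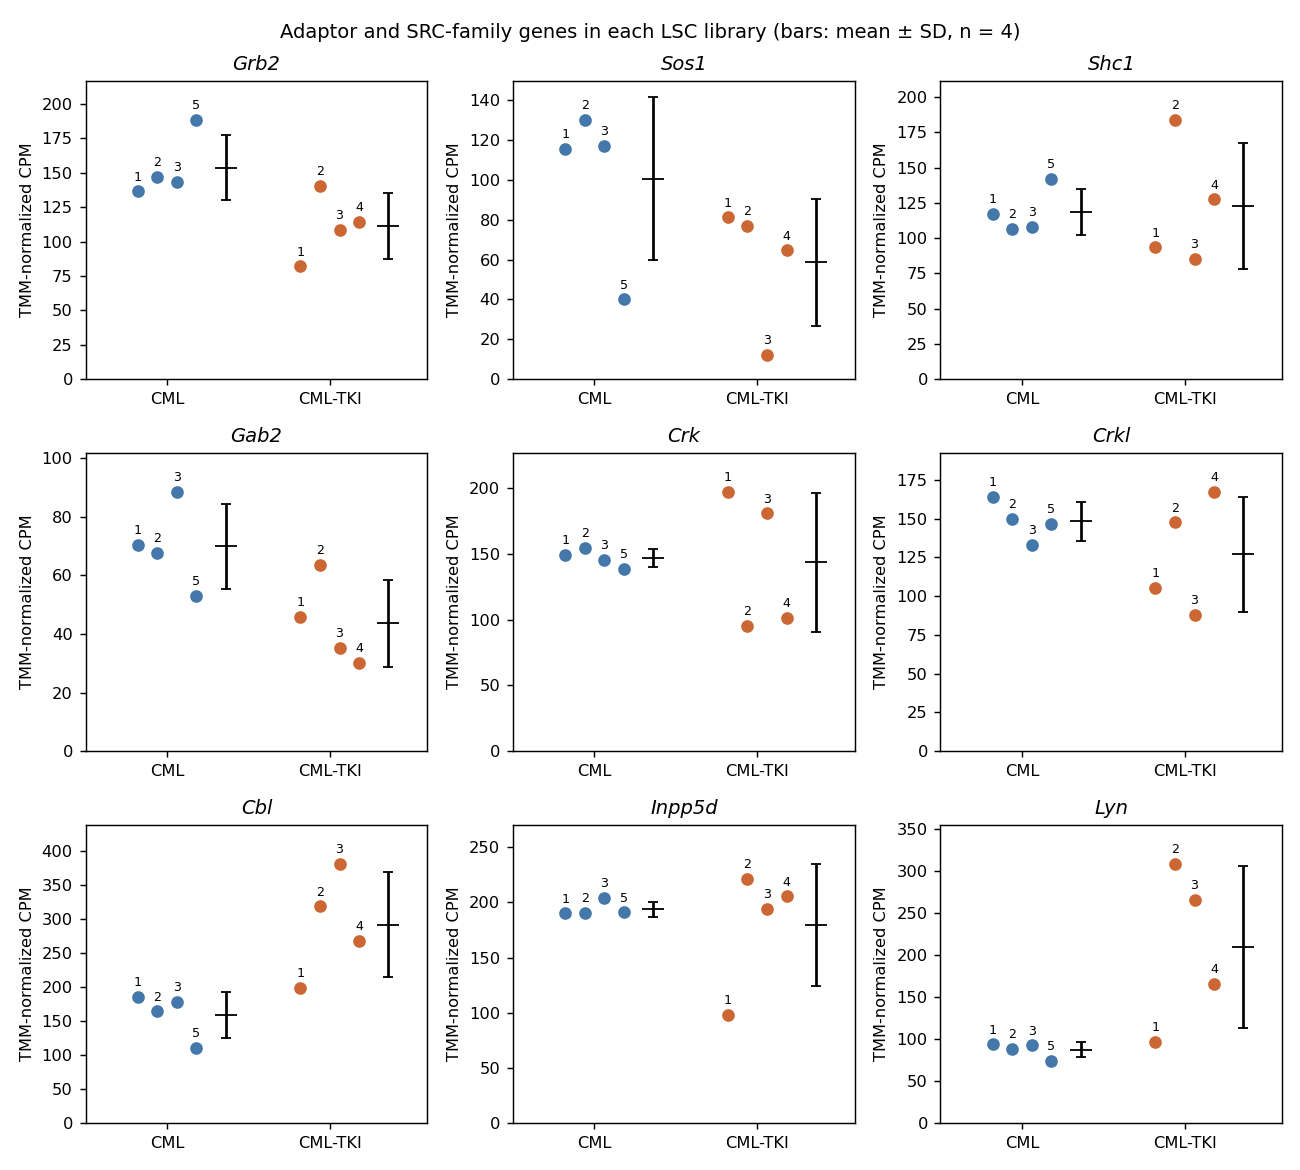
TMM-normalized CPM of each of the 9 genes, 1 panel per gene on a linear axis from 0, with a numbered point for each CML (blue) and CML-TKI (orange) library and the mean ± SD (n = 4) beside each group. Lyn and Cbl are the genes whose groups do not overlap, and for Lyn the value of 96.1 CPM in CML-TKI 1 lies just above the highest CML value of 93.7.

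The route from BCR-ABL to RAS runs through Grb2, Sos1 and Shc1. Grb2, the SH2-SH3 adaptor at the center of the complex (GRCm38 chr11:115644045-115708597, minus strand), was measured at 136, 147, 143 and 188 CPM in CML libraries 1, 2, 3 and 5 and at 81.9, 140.1, 108.5 and 114 CPM in CML-TKI libraries 1 to 4. Of the CML-TKI values, 3 lay below every CML value, and the value in CML-TKI 2 lay inside the CML range. The mean went from 154 ± 23.5 (SD, n = 4) to 111 ± 23.9 CPM (n = 4), a log2 fold change of -0.47 (SE 0.22, 95% confidence interval -0.96 to 0.03) that did not pass the test (adjusted p = 0.223, edgeR).

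Sos1, the guanine nucleotide exchange factor that GRB2 carries to RAS (chr17:80393752-80480453, minus strand), was measured at 115, 129.9, 117 and 40.0 CPM in CML libraries 1, 2, 3 and 5 and at 81.1, 76.9, 12.1 and 64.5 CPM in CML-TKI libraries 1 to 4. CML 5 lay below 3 of the CML-TKI libraries, and the lowest value came from the shallowest library. The log2 fold change was -0.75 (SE 0.52, interval -1.90 to 0.40, adjusted p = 0.402, edgeR), the widest interval of the 9 genes, and it ran from -1.35 to -0.43 over 18 alternative settings. Shc1, the adaptor that links phosphotyrosine to GRB2 (chr3:89418551-89430029, plus strand), was measured at 117, 106, 108 and 142 CPM in the CML libraries and at 93.4, 184, 85.5 and 127 CPM in CML-TKI libraries 1 to 4. The CML-TKI libraries lay on both sides of the CML range. The log2 fold change was 0.06 (SE 0.27, interval -0.54 to 0.65, adjusted p = 0.924, edgeR), and its sign depended on the setting.

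Gab2, the docking protein that links GRB2 to PI3K and SHP2 (chr7:97081751-97308951, plus strand), had one of the lowest levels per length of the 9 genes. It was measured at 70.4, 67.7, 88.5 and 52.9 CPM in the CML libraries and at 45.8, 63.5, 35.1 and 30.2 CPM in CML-TKI libraries 1 to 4. Only CML-TKI 2 lay above the lowest CML library. The mean went from 69.9 ± 14.6 (SD, n = 4) to 43.6 ± 14.8 CPM (n = 4), a log2 fold change of -0.67 (SE 0.29, interval -1.32 to -0.03). Its unadjusted p of 0.0421 from edgeR became 0.175 after adjustment, and the adjusted p ranged from 0.0603 to 0.606 over the 18 alternatives.

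Crkl and Crk encode adaptors with an SH2 domain followed by SH3 domains. Crkl (chr16:17451985-17487440, plus strand) was measured at 164, 149.97, 133 and 146 CPM in the CML libraries and at 105, 148, 87.7 and 167 CPM in CML-TKI libraries 1 to 4. CML-TKI 1 and 3 lay below every CML library, CML-TKI 4 lay above all of them and CML-TKI 2 lay among them. The log2 fold change was -0.22 (SE 0.24, interval -0.75 to 0.31, adjusted p = 0.611, edgeR). Crk (chr11:75679194-75708428, plus strand) was measured at 149, 155, 146 and 138 CPM in the CML libraries and at 197, 95.5, 181 and 101 CPM in CML-TKI libraries 1 to 4. Here CML-TKI 1 and 3 lay above every CML library, and CML-TKI 2 and 4 lay below them. The log2 fold change was -0.04 (SE 0.27, interval -0.64 to 0.56, adjusted p = 0.954, edgeR).

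Crkl and Crk thus split the CML-TKI libraries the same way but in opposite directions. Per kilobase of exon, the ratio of Crk to Crkl was 1.06 ± 0.089 (SD, n = 4) in the CML libraries, between 0.973 and 1.17. In CML-TKI libraries 1 to 4 it was 2.003, 0.690, 2.20 and 0.645, so that all 4 lay outside the CML range, 2 above and 2 below. The ratio was looked at after the values had been seen, and it is given as a description.

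Of the remaining genes beside Lyn, Cbl encodes a ubiquitin ligase and scaffold, and Inpp5d encodes a lipid phosphatase. Cbl, the ubiquitin ligase (chr9:44142976-44234259, minus strand), was measured at 185, 164, 178 and 109.98 CPM in the CML libraries and at 199, 318, 381 and 268 CPM in CML-TKI libraries 1 to 4. All 4 CML-TKI libraries lay above all CML libraries, CML-TKI 1 by the least. The mean went from 159 ± 34.0 (SD, n = 4) to 292 ± 77.3 CPM (n = 4), a fold of 1.83 and a log2 fold change of 0.87 (SE 0.26, interval 0.29 to 1.45). The adjusted p of 0.0631 from edgeR did not pass the threshold. It passed with DESeq2 (0.0153), with limma-voom and sample weights (0.0175) and without CML-TKI 1 (0.0167), and in none of the other 15 alternatives.

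Inpp5d, the inositol phosphatase SHIP1 (chr1:87620312-87720510, plus strand), was measured at 189.98, 191, 204 and 191 CPM in the CML libraries and at 98.0, 221, 194 and 206 CPM in CML-TKI libraries 1 to 4. The CML values were the most even of the 9 genes, with an SD of 6.68 CPM, whereas CML-TKI 1 lay far below the other 7 libraries. The log2 fold change was -0.11 (SE 0.26, interval -0.69 to 0.47, adjusted p = 0.830, edgeR), and without CML-TKI 1 it was 0.09.

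Lyn (chr4:3678068-3791612, plus strand), the SRC-family kinase of the set, was measured at 93.7, 88.4, 92.4 and 74.4 CPM in the CML libraries and at 96.1, 309, 266 and 166 CPM in CML-TKI libraries 1 to 4. CML-TKI 1 was level with the CML libraries, and the other 3 CML-TKI libraries lay well above them. The mean went from 87.2 ± 8.85 (SD, n = 4) to 209 ± 96.5 CPM (n = 4), a log2 fold change of 1.26 (SE 0.34, interval 0.51 to 2.01, adjusted p = 0.0435, edgeR). The direction held in all 18 alternatives (log2 fold change 0.997 to 1.498), but the call held in only 6 of them, and the adjusted p ran from 0.00319 to 0.304. It was lost when any single library other than CML-TKI 1 was left out (adjusted p 0.0578 to 0.117), and without CML-TKI 1 it was 0.00319.

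**Figure D2:**
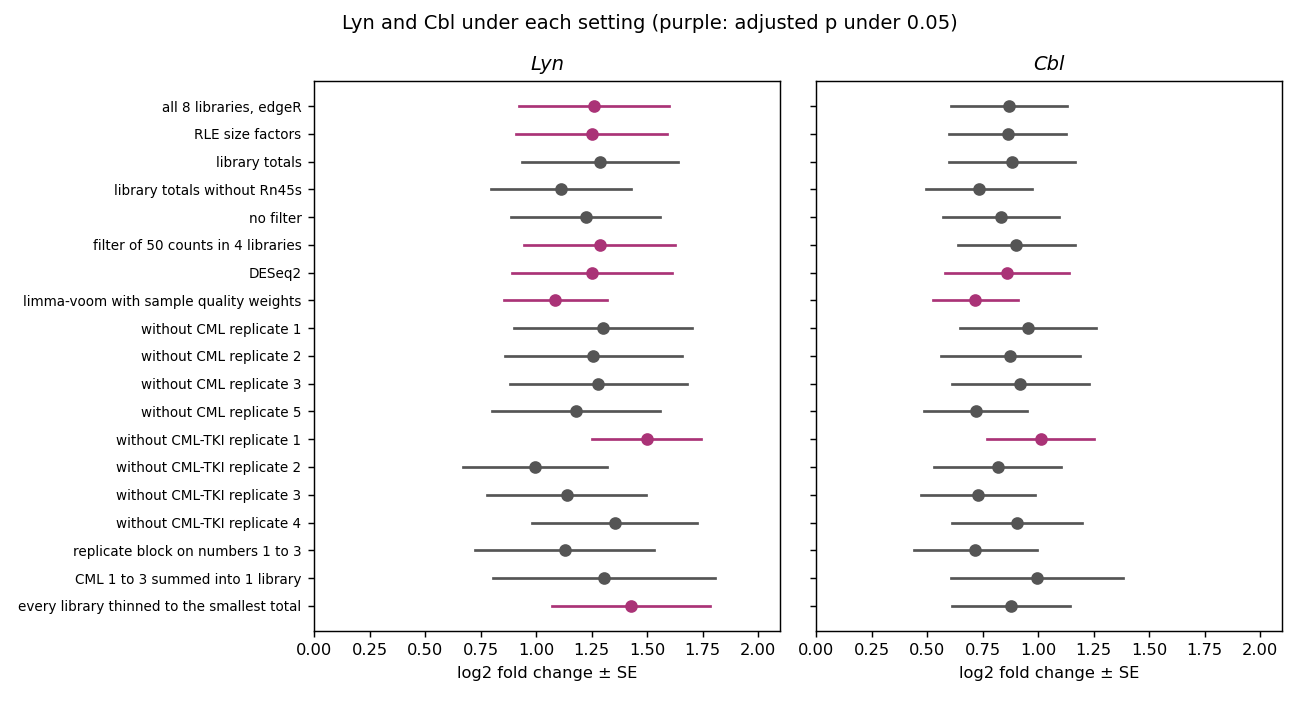
Log2 fold change ± SE of Lyn and of Cbl under the reported fit and 18 alternatives, in purple where the adjusted p is under 0.05. All values lie above a fold change of 0, and 6 alternatives for Lyn and 3 for Cbl pass the threshold.

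Markers of myeloid cells moved with Lyn. The summed level of 13 granulocyte genes was between 181 and 296 CPM in the CML libraries, 1519 CPM in CML-TKI 1 and between 8057 and 8653 CPM in the other CML-TKI libraries. That of 10 monocyte and macrophage genes was between 33.2 and 47.3 CPM in the CML libraries, 918 CPM in CML-TKI 1 and between 2874 and 4638 CPM in the other CML-TKI libraries, and no gene of either list was at 0 throughout a group. CML-TKI 1 was thus the lowest of the CML-TKI libraries for Lyn, for Cbl and for both lists. The stem cell genes ran the other way, with a sum between 1582 and 1736 CPM in the CML libraries, 435 CPM in CML-TKI 1 and between 46.5 and 145 CPM in the others. Their part in the results for Lyn and Cbl was not tested, and in bulk RNA fewer cells of a type and less RNA per cell cannot be told apart.

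The other marker lists are given for completeness of the comparison. The sum of 7 erythroid genes was 31624 CPM in CML-TKI 3 against 55.2 to 501 CPM in the other CML-TKI libraries. In the CML libraries it was 142 to 240 CPM. Of 6 tested genes, 0 were called by edgeR or DESeq2 and 2 by limma-voom. Of all 11937 genes tested, edgeR called 1220 (10.2%), DESeq2 2157 and limma-voom 2544. An unadjusted p under 0.05 by edgeR was reached by 3 erythroid genes, where 25.7% of all genes reached it. The 7 megakaryocyte genes summed to 1223 to 1485 CPM in CML LSCs, against 48.7 to 599.9 CPM in CML-TKI LSCs, with 6 of 7 log2 fold changes below 0 and 2 genes past the test (3.93% of all genes were called lower). B cell genes stayed between 16.9 and 23.4 CPM except in CML-TKI 3 (287 CPM), where T and NK cell genes were also highest at 230.2 CPM against 20.5 to 97.8 CPM elsewhere, and Cd3e, Cd3g and Cd8a had no count in any CML library. Of the basophil and mast cell genes 1 was tested, and it passed as higher (6.29% of all genes did), with sums of 2.06 to 4.05 CPM in the CML libraries and 4.38 to 1164 CPM in the CML-TKI libraries.

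**Figure D3:**
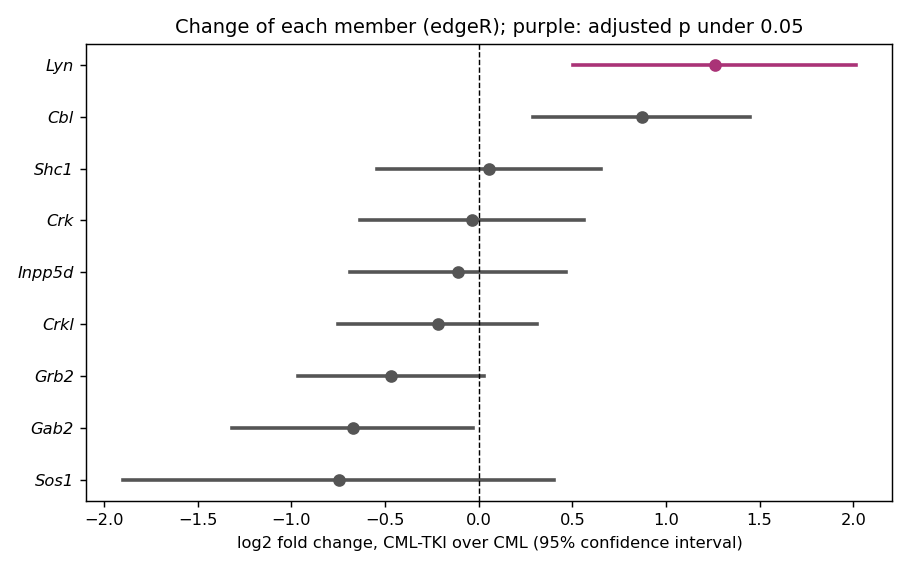
Log2 fold change of the 9 genes, CML-TKI against CML, with 95% confidence intervals from the edgeR fit and in purple where the adjusted p is under 0.05. The intervals of Lyn and Cbl lie above 0 and that of Gab2 just below it, and Lyn is the gene with an adjusted p under 0.05.

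Levels of different genes were compared per kilobase of exon. In the CML libraries the order of means was Grb2 (53.2 CPM per kb), Inpp5d (38.9), Crk (31.1), Shc1 (31.0), Crkl (29.4), Lyn (25.2), Cbl (14.0), Sos1 (11.9) and Gab2 (11.3). The range of Grb2 over the 4 libraries did not reach that of Inpp5d, that of Inpp5d did not reach those of the genes after it, and Lyn stayed above Cbl, Sos1 and Gab2. Within the group from Crk to Lyn, and among the lowest genes, neighbors overlapped. In the CML-TKI libraries Lyn had the highest mean, 60.5 CPM per kb with a range of 27.8 to 89.3, followed by Grb2 at 38.5 and Inpp5d at 36.1, and these ranges overlapped. Cbl went from 14.0 to 25.6 CPM per kb and stood beside Crkl at 25.2, while Gab2 (7.07) and Sos1 (6.95) stayed lowest. The order depended in part on the length used. By the longest transcript of each gene, Shc1 ranked above Crk in the CML libraries and above Inpp5d in the CML-TKI libraries.

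Of the other SRC-family kinases examined, Fgr, a kinase known from granulocytes and monocytes, rose in CML-TKI LSCs. Fgr was measured at 2.32, 3.09, 10.4 and 4.12 CPM in the CML libraries and at 15.8, 47.1, 73.4 and 29.4 CPM in CML-TKI libraries 1 to 4, a log2 fold change of 3.03 (SE 0.62, adjusted p = 0.0142, edgeR). As for Lyn, all CML-TKI libraries lay above all CML libraries and CML-TKI 1 was the lowest of them, and the myeloid lists above moved the same way.

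None of the more broadly expressed kinases Fyn, Src and Yes1 passed the test with edgeR, while with limma-voom and sample weights all 3 were lower (adjusted p of 0.0351, 0.0272 and 0.0292). Fyn was measured at 55.6, 59.1, 60.7 and 58.2 CPM in the CML libraries and at 71.2, 10.2, 7.67 and 23.7 CPM in CML-TKI libraries 1 to 4, and its log2 fold change of -1.005 did not pass the test (adjusted p = 0.316, edgeR). Without CML-TKI 1, the one CML-TKI library above the CML range, it was -2.01 with an adjusted p of 0.00649. Src was measured at 23.3, 24.7, 28.6 and 34.6 CPM in the CML libraries and at 23.2, 0, 0 and 6.24 CPM in CML-TKI libraries 1 to 4 (adjusted p = 0.309, edgeR, and 0.0294 without CML-TKI 1). Yes1 was measured at 11.7, 11.6, 18.2 and 7.70 CPM in the CML libraries and at 31.0, 0, 1.10 and 0 CPM in CML-TKI libraries 1 to 4 (adjusted p = 0.844, edgeR, and 0.00448 without CML-TKI 1). Src and Yes1 reached the count filter in 4 of 4 CML libraries but in 2 and 1 of the 4 CML-TKI libraries, so they entered the test only through the group where they were high, and their values past the threshold, with limma-voom or without CML-TKI 1, carry that limit. CML-TKI 1 lay above every CML library for Fyn and Yes1 and just below them for Src, and the other 3 CML-TKI libraries lay below every CML library for each of these kinases. Lck, a kinase of T and NK cells, lay between 5.21 and 7.42 CPM in the CML libraries and at 6.46, 0, 43.8 and 15.3 CPM in CML-TKI libraries 1 to 4 (adjusted p = 0.476, edgeR), highest in CML-TKI 3, the library with the highest sum of T and NK cell genes, a list that holds Lck itself. Blk, a B cell kinase, had too few counts to be tested.

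Per kilobase of exon, Lyn was the most abundant of the 6 SRC-family kinases shown in all 8 libraries. Fyn came next in every CML library, at 14.5 to 15.8 CPM per kb against 21.5 to 27.1 CPM per kb for Lyn. In the CML-TKI libraries Fyn was at 18.6, 2.66, 1.999 and 6.17 CPM per kb, against 27.8, 89.3, 76.9 and 47.9 CPM per kb for Lyn. Fgr was at 0.624 to 2.81 CPM per kb in CML LSCs, against 4.25 to 19.8 CPM per kb in CML-TKI LSCs. It lay below Fyn in all CML libraries and in CML-TKI 1, and above Fyn in the other 3 CML-TKI libraries.

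**Figure D4:**
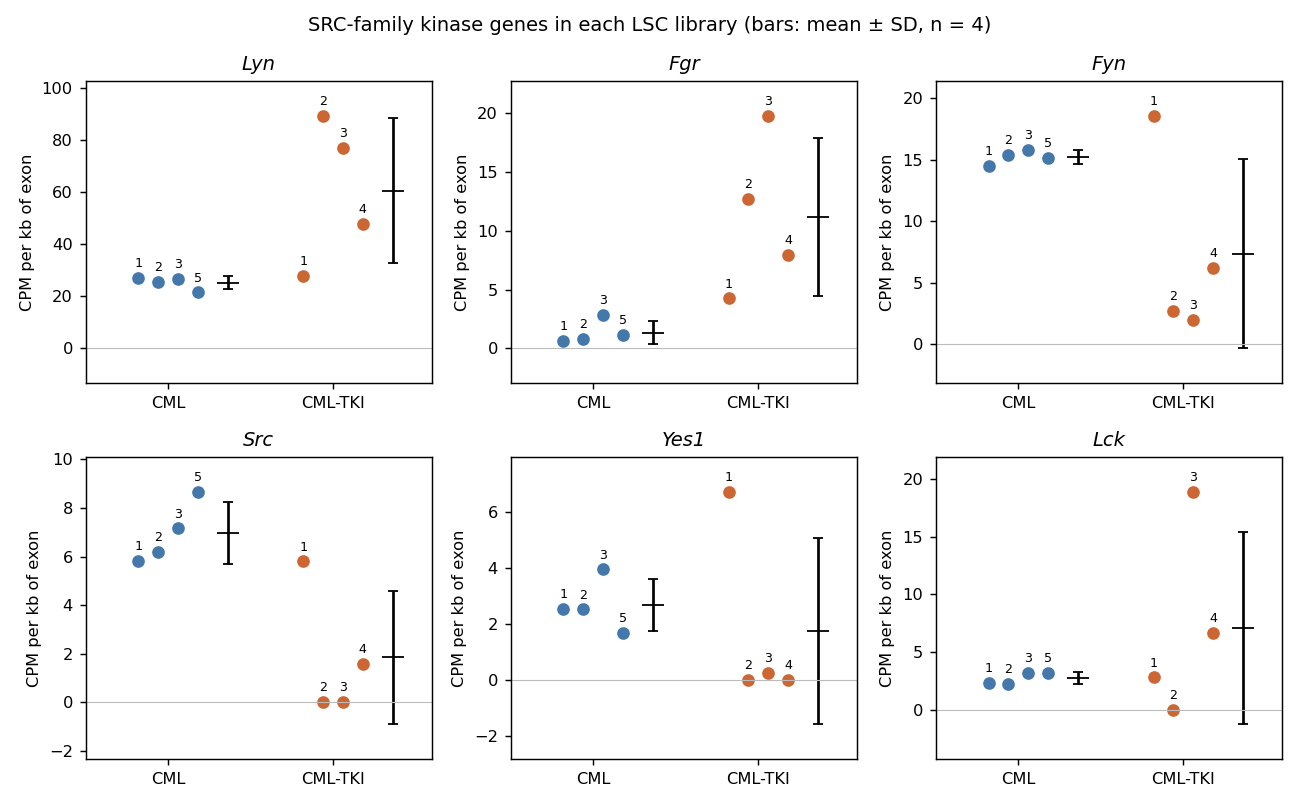
Level of 6 SRC-family kinases, 1 panel per gene in CPM per kilobase of exon on a linear axis, with a numbered point for each CML (blue) and CML-TKI (orange) library and the mean ± SD (n = 4) beside each group; each panel has its own scale. For Lyn and Fgr all CML-TKI points lie above the CML points, and for Fyn, Src and Yes1 CML-TKI 1 lies apart from the other CML-TKI libraries.

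The wider pathway was read from 4 lists of named genes, with 70 genes tested. Of these 9 passed the test (12.9%, against 10.2% of all genes), 7 higher (6.29% of all genes were) and 2 lower (3.93% of all genes were) in CML-TKI LSCs, a share near that of all genes. Of the other adaptors and regulators 21 of 28 were tested, with 1 higher, 2 lower (14.3% called, against 10.2% of all genes) and a median log2 fold change of 0.18. Dok3, an adaptor that restrains signaling in myeloid and B cells, was at 2.45 to 4.95 CPM in CML LSCs, against 23.2 to 113 CPM in CML-TKI LSCs (log2 fold change 4.11, SE 0.52, adjusted p = 0.00166, edgeR). Its relative Dok2, a RasGAP-binding adaptor that BCR-ABL phosphorylates, was lower, at 38.1 to 76.0 CPM in CML LSCs, against 5.48 to 23.9 CPM in CML-TKI LSCs (-1.85, SE 0.42, adjusted p = 0.0228, edgeR). Grb10, an adaptor of receptor tyrosine kinases, was between 172 and 205 CPM in the CML libraries and at 53.8, 21.4, 0 and 40.6 CPM in CML-TKI libraries 1 to 4 (-2.64, SE 0.68, adjusted p = 0.0369, edgeR), and it reached the count filter in 4 CML but 3 CML-TKI libraries, which puts it under the limit given for Src and Yes1. Dok2 and Dok3 thus moved in opposite directions, and neither overlapped between the groups.

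Of 21 RAS and ERK genes, all tested, 2 were higher and none was lower (9.52% called, against 10.2% of all genes), with a median of 0.33. Rasgrp4, a RAS exchange factor of mast cells and other myeloid cells, was at 5.02 to 8.66 CPM in CML LSCs, against 13.9 to 62.5 CPM in CML-TKI LSCs (2.13, SE 0.52, adjusted p = 0.0306, edgeR). Rasa2, a GTPase-activating protein that turns RAS off, was at 32.7, 34.0, 35.6 and 13.2 CPM in the CML libraries, against 54.9 to 91.2 CPM in CML-TKI LSCs (1.31, SE 0.34, adjusted p = 0.0375, edgeR).

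Of the PI3K and AKT genes 20 of 21 were tested, with 3 higher, none lower (15% called, against 10.2% of all genes) and a median of 0.23. Pik3r5 and Pik3r6 encode the regulatory subunits of PI3K gamma, the form that G protein-coupled receptors activate in leukocytes. Pik3r5 was at 4.44 to 8.11 CPM in CML LSCs, against 25.3 to 99.7 CPM in CML-TKI LSCs (3.11, SE 0.48, adjusted p = 0.00374, edgeR). Pik3r6 was at 0.193 to 2.06 CPM in CML LSCs, where it had 1 to 15 counts and CML 2 was under the floor of 3 counts, against 15.2 to 76.7 CPM in CML-TKI LSCs. It reached the count filter in 0 of 4 CML and 4 of 4 CML-TKI libraries, so it entered the test only through the group where it was high, and its call (adjusted p = 0.00397, edgeR) and its place among the 9 genes called carry that limit. Inpp4a, a lipid phosphatase that acts downstream of SHIP1, was at 36.6 to 49.0 CPM in CML LSCs, against 58.9 to 194 CPM in CML-TKI LSCs (1.30, SE 0.34, adjusted p = 0.0426, edgeR).

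SRC-family kinases other than Lyn and their regulators made up the fourth list, with Fgr higher of 8 tested, none lower (12.5% called, against 10.2% of all genes) and a median of -0.28. When each library was left out in turn, the calls of Dok3 and Pik3r5 held in 8 of 8 fits, as did that of Pik3r6, with the limit given above. Those of Fgr held in 5 fits, of Dok2, Rasgrp4 and Rasa2 in 3 each, of Grb10 in 2 and of Inpp4a in 1. With CML libraries 1 to 3 summed, the calls of Dok3, Pik3r5 and Pik3r6 were lost as well (adjusted p = 0.0588, 0.0968 and 0.0717, edgeR). That of Pik3r5 was also lost with the replicate block (adjusted p = 0.0692, edgeR). The granulocyte and monocyte sums given beside Lyn likewise did not overlap between the groups and were higher in CML-TKI LSCs, as were the 7 genes called higher, and their part was not tested. Within the CML-TKI libraries, Dok3, Fgr, Rasgrp4, Pik3r5, Pik3r6 and Inpp4a were lowest in CML-TKI 1, as both sums were. Rasa2 did not follow those sums, since it was highest in CML-TKI 1.

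**Figure D5:**
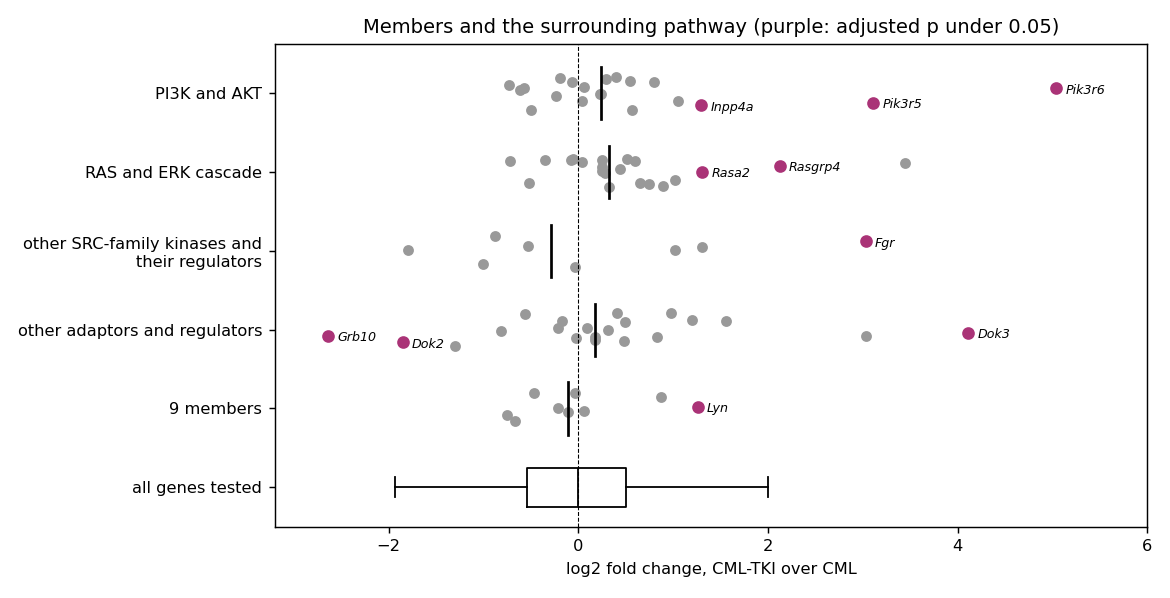
Log2 fold change of every tested gene by list, CML-TKI against CML, in purple where the adjusted p is under 0.05, with the list median as a bar and, for all genes, a box of the quartiles with whiskers at the 5th and 95th percentiles. The medians lie between -0.28 for the SRC-family list and 0.33 for the RAS and ERK list, with -0.11 for the 9 genes, and the purple points are Lyn and the 9 pathway genes called.

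Genes whose log2 CPM ran most like that of Lyn over the 8 libraries, among the 5458 genes whose mean log2 CPM reached 5, were Samhd1, a dNTP hydrolase of myeloid cells (Pearson r = 0.990), Ifnar2, a subunit of the type I interferon receptor (0.990), and Cyb5r4, a reductase (0.987). Those most like Cbl were Lyst, a regulator of lysosomal traffic (0.990), Arhgap26, a GTPase-activating protein (0.989), and Kdm7a, a histone demethylase (0.987). The 8 points share the split between the groups and the order of the CML-TKI libraries, so these values are a description of likeness only.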

How the data were processed

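RNA extracted on RNeasy Plus columns went into Nextera XT libraries. The submitters' processing notes name STAR 2.6.1d, Partek 8.0 and the builds mm10 and hg38, and the values the authors deposited are estimated counts, 1 per gene and library, not normalized. Between 8.32% and 22.1% of a library's values were not whole. Strand use in the counting is not given in the sources used here, so overlapping and antisense genes cannot be told apart. Reads of the human BCR-ABL transgene were not analysed here. The column named CML 5 was used as the CML library without a number.

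The estimated counts were rounded. edgeR 4.0.16 in R 4.3.3 was run with TMM, filterByExpr (minimum count 10, minimum total 15), robust dispersions and quasi-likelihood F-tests of 11937 genes. Adjusted p-values (Benjamini-Hochberg) cover all of these, and 0.05 was the threshold. Each SE is the size of the log2 fold change divided by the root of F, and intervals use t quantiles. log2 CPM used a prior count of 2. Exon lengths and strands came from the GENCODE annotation and gene positions from RefSeq, on GRCm38 (mm10). Each sample pair was compared by chi-square: CML libraries 1 to 3 differed less (3.99 to 5.95 per degree of freedom) than other pairs of a group (27.2 to 94.1), but beyond sampling noise, and were kept as 3 libraries.

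All 9 genes were named, as were the pathway genes past the threshold (at most 6 per list and direction) and other SRC-family kinases. Slamf1, Cd48, Kit, Ly6a, Flt3 and the 3 genes most like Lyn and Cbl were also named. A gene of the lists is not reported here, and counts over its list leave it out. The members and lists were chosen with earlier results of these data known. Counts were simulated at the mean levels and depths of these libraries, with 200 of 11731 genes changed 8-fold. The share recovered was 98.5% for edgeR, 96% for limma-voom and 98.5% for DESeq2, and the share of false calls was 3.43%, 3.03% and 12.8%. The simulation gave all genes the same dispersion and all CML-TKI libraries the same shift, and left the lowest genes unchanged. These data differ in that, and the 9 genes changed less than 8-fold, so the shares do not measure power or error for them. Alternatives were DESeq2 1.42.0, limma 3.58.1 (voom with sample weights), other scalings and filters, leaving out each library, a replicate block, CML 1 to 3 summed, and thinning to 1041552 counts.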

Additional observations from a re-analysis of the deposited data

Results flagged for a closer look

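Among 48 tests of a gene in a group of 4 libraries, in 4 cases 1 library stood apart from the other 3 by Dixon's criterion at the 95% level, where about 2.4 would do so by chance. Sos1 was at 40.0 CPM in CML 5, against 115 to 129.9 CPM in the other CML libraries. Rasa2 was at 13.2 CPM in CML 5 as well, against 32.7 to 35.6 CPM. CML 5 also stood apart as a library, with 38.3% of its counts on the ribosomal RNA gene Rn45s, against 20.2% to 23.1% in the other CML libraries. The part of this in the values of Sos1 and Rasa2 was not tested. Inpp5d was at 204 CPM in CML 3, against 189.98 to 191 CPM in the other CML libraries, so that the gap was small beside the level. Yes1 was at 31.0 CPM in CML-TKI 1, against 0 to 1.10 CPM in the other CML-TKI libraries.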

How the results depend on the processing

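Of all genes, 1220 were called in the reported fit, 2157 with DESeq2, 2544 with limma-voom, 122 with CML 1 to 3 summed, and 505 (without CML 1) to 2504 (without CML-TKI 1) when a library was left out. Of the 9 genes, 1 was called in the reported fit, 2 with DESeq2 and with limma-voom, 0 with library totals, with totals without Rn45s, without a filter and with CML 1 to 3 summed, and 0 to 2 when a library was left out. Of the pathway genes, 9 were called in the reported fit, 15 with DESeq2, 19 with limma-voom, 0 with CML 1 to 3 summed, and 3 to 21 when a library was left out. Summing or leaving out a library also lowers the number of samples, and the cause of the other shifts was not tested. Whether the shared numbers 1 to 3 pair the libraries was not settled. Correlations were -0.0224, 0.152 and 0.0908 for like numbers and -0.183 to 0.0832 for unlike numbers, over 3 libraries per group. A replicate block on these 6 libraries called 165 genes, 2 pathway genes and 0 of the 9 genes, against 589 genes and 0 of the 9 in the same libraries without it.

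The sign turned for Crk without CML-TKI 2 (0.11), without CML-TKI 4 (0.10) and with the replicate block (0.0044), for Shc1 with totals without Rn45s (-0.079), without CML 2 (-4.71e-04), without CML-TKI 2 (-0.21), with CML 1 to 3 summed (-0.064) and with thinning (-0.053), for Inpp5d without CML-TKI 1 (0.091), and for Lck with limma-voom (-0.23) and the replicate block (-0.038). Over the fits that left out a library, the log2 fold change ran from -0.24 to 0.11 for Crk, from -0.21 to 0.20 for Shc1 and from -0.23 to 0.091 for Inpp5d. Totals without Rn45s, limma-voom and the block moved the median of all genes by -0.12, -0.11 and -0.13. Depth limits CML-TKI 3 most, where Sos1 rests on 11 counts.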
